A study of Mus musculus with 2 samples.

Results

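The myogenic regulators, Pax and Mef2 factors are the transcription factors that make satellite cells, commit them to the muscle lineage and drive the genes of the muscle fibre. They comprised 10 genes here, Pax3, Pax7, Myf5, Myf6, Myod1, Myog, Mef2a, Mef2c, Mef2d and Prox1, taken as every probe set whose platform annotation names one of them, which gave 11 of the 35556 probe sets on the array and 10 of its 19938 named genes. None of the 11 probe sets names a second gene. The tissue was skeletal muscle of the hindlimb from male mice of strain C57BL/6J on a standard chow diet, with 1 array for Syn4 transgenic mice, which overexpress syntaxin 4, and 1 array for wild-type mice. The sources used here give neither the age of the mice nor the promoter that drives the transgene nor the number of mice behind each array. Syntaxin 4 is the plasma membrane SNARE protein through which GLUT4 vesicles fuse with the muscle cell surface, and the study concerns lifespan and insulin sensitivity.

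PAX3 and PAX7 are paired-box factors of muscle progenitors, and PAX7 marks the satellite cell, the stem cell of adult muscle. MYF5, MYOD, myogenin and MRF4 (the product of Myf6) are basic helix-loop-helix (bHLH) factors that pair with E proteins, bind E boxes and act in sequence, MYF5 and MYOD in commitment and myogenin in differentiation, while MRF4 is the one most abundant in adult fibres. MEF2 factors bind an A/T-rich site beside many E boxes and are held in check by class IIa histone deacetylases, which calcium signalling removes. PROX1, a homeobox factor best known for lymphatic endothelium, is also made in satellite cells and fibres, where in mice it is known to promote slow fibre genes.

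Every value below is a log2 intensity after RMA as deposited, every difference is Syn4 transgenic minus wild type, and with 1 array per genotype there is no error and no test. The transgene was read by Stx4a, at 12.20 in the Syn4 transgenic and 8.84 in the wild-type array. A gene counted as past the rule of size when it differed by at least 1.5-fold (0.585 on the log2 scale) and its higher value reached 6.79, the median over all genes of the higher of both values. Of the 9974 genes that reached this level, 4.37% differed by 1.5-fold, 2.66% being higher and 1.71% lower in Syn4 transgenic muscle. For scale, 95% of 1027 olfactory receptor genes, which muscle has little reason to express, had a mean level under 5.42. Levels of different probe sets are not compared, since each probe set has its own response. In whole muscle, fewer cells of a type and less RNA per cell cannot be told apart.

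Prox1 was the only one of the 10 genes past the rule of size, and it was lower in Syn4 transgenic muscle. The other 9 lay within 1.5-fold. Mef2a, Mef2c, Myod1 and Myf5 were higher by 0.27 to 0.38, Pax7 was lower by a similar amount (-0.33), and Myf6, Mef2d, Myog and Pax3 were near equal. In all 6 genes were higher, 1 was equal and 3 were lower, with a median difference of 0.08, against a median of 0.00 over all 19938 genes and of 0.03 over the 9974 genes that reached the level filter. Of all genes 46.9% were above 0 and 49.6% below. Among the 9974 genes at the level filter 53.5% were above 0 and 44.2% below. The single member past 1.5-fold stands beside the 4.37% of the 9974 genes at the level filter that were, and 7 of the 10 members reached that filter, Prox1 through its wild-type value alone. At 2-fold no member passed, beside 1.24% of those 9974 genes. With both arrays held to the level filter no member passed at 1.5-fold, beside 3.63% of 9446 genes. Without a level filter Prox1 was again the single member past 1.5-fold, beside 2.95% of all 19938 genes.

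**Figure D1:**
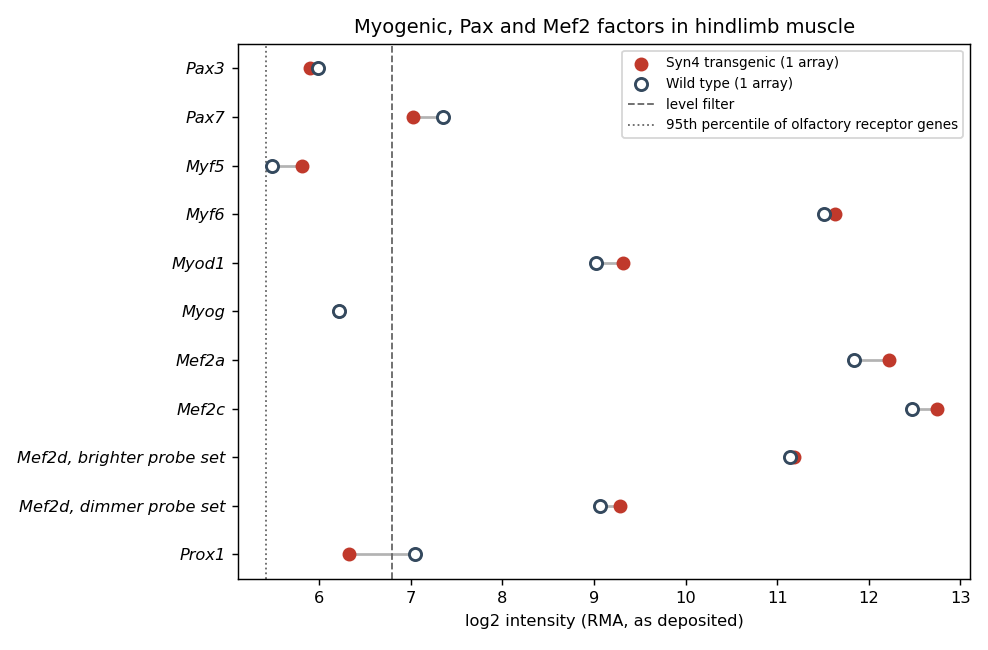
Log2 intensity (horizontal axis) of the 11 probe sets of the 10 genes, with 1 filled red point for the Syn4 transgenic array and 1 open point for the wild-type array. The gap is widest for Prox1 (6.33 against 7.05). The points of Myog coincide at 6.22, and the points of Pax3, Myf5 and Myog lie under the level filter of 6.79 in both arrays.

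The sequences upstream of 3 members are shown, Prox1 because it was past the rule of size, Mef2a because it had the highest difference of the members, and Myog because it was equal in both arrays while its upstream sequence holds E boxes, the motif that its bHLH relatives are known to bind. Each run is the 250 bases before an annotated transcription start in RefSeq on GRCm38.p6, read 5′ to 3′ along the gene's strand. The E box CANNTG, which reads the same pattern on both strands, and a relaxed MEF2 pattern are in capitals. The relaxed pattern is the MEF2 consensus with any base allowed at its outermost position on one side, a form chosen after the sequences were seen.
Prox1, chr1:190170828-190171077, minus strand: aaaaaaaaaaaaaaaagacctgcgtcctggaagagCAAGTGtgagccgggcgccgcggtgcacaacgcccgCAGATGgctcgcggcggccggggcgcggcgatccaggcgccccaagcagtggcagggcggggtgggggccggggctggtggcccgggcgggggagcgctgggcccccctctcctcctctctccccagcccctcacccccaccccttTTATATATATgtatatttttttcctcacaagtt
Mef2a, chr7:67372859-67373108, minus strand: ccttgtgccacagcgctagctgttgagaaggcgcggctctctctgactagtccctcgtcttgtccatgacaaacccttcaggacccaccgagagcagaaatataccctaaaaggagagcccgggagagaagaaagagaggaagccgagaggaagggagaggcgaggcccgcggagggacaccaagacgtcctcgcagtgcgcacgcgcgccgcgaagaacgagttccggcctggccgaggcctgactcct
Myog, chr1:134289754-134290003, plus strand: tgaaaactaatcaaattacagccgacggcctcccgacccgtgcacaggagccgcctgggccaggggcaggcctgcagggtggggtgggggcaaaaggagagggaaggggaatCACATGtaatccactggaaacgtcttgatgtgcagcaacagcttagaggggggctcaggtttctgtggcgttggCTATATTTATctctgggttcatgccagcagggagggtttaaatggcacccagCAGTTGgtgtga
The Prox1 run holds 2 E boxes (CAAGTG and CAGATG) and 1 relaxed MEF2 match, and the second annotated start of Prox1 holds none of these. The Myog run holds the E boxes CACATG and CAGTTG, with 1 relaxed MEF2 match between them. The Mef2a run holds no match. RefSeq windows were matched for 7 of the 10 genes, with 10 starts in all. An E box lay in 4 of the 10 starts, 1 for Prox1, 1 for Myog and 2 for Mef2c, and in 66.2% of the 32851 starts of all genes. The strict MEF2 consensus lay in none of the 10 starts and in 2.92% of all. The relaxed pattern lay in 3 of the 10 starts and in 7.03% of all. It was chosen with the member sequences in view, and some starts share a gene, so these shares measure no enrichment. A match describes letters only, and these windows do not show binding.

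The Pax factors were lower or near equal in the Syn4 transgenic array. Pax7 was at 7.02 in the Syn4 transgenic and 7.35 in the wild-type array, a difference of -0.33, or 1.26-fold lower. Both values were above the level filter. Among the 500 genes nearest in mean level, 5.6% were at least as far below 0 and 16.0% differed at least as much in size. Pax3 was at 5.90 in the Syn4 transgenic and 5.99 in the wild-type array, under the level filter in both. Its difference of -0.09 was matched or exceeded in size by 67.4% of genes of like level.

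The myogenic bHLH factors were equal or higher, by at most 1.26-fold. Myod1, the commitment factor that is known in adult mouse muscle to be richer in fast fibres, was at 9.32 in the Syn4 transgenic and 9.02 in the wild-type array. This excess of 0.30 was reached in the same direction by 9.4% of the 500 genes of like level, and in size by 17.2%. Myf6 was at 11.63 in the Syn4 transgenic and 11.51 in the wild-type array, a difference of 0.12. Of like genes 28.8% reached it in the same direction and 57.4% in size. This fibre-enriched factor thus differed by 1.09-fold. Myf5 was at 5.81 in the Syn4 transgenic and 5.48 in the wild-type array, a difference of 0.33. Both values lie just above the olfactory receptor percentile of 5.42 and under the level filter, so the signal was dim in each array. Myog, which differentiating myoblasts and denervated fibres switch on, read 6.22 in both arrays, also under the level filter. Myf5 and Myf6 are neighbours on chromosome 10. The next genes outward, looked up after the values were seen, were Lin7a beside Myf5 at 0.26 and Ptprq beside Myf6 at 0.00.

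The 3 MEF2 genes were above the level filter in both arrays and all had differences above 0. Mef2a had the highest difference of the 10 members. It was at 12.22 in the Syn4 transgenic and 11.84 in the wild-type array, a difference of 0.38, or 1.30-fold higher. Of the 500 genes of like level 5.2% reached this in the same direction and 10.6% in size. Mef2c, which endothelium and nerve also express, was at 12.74 in the Syn4 transgenic and 12.47 in the wild-type array. Its difference of 0.27 was reached in the same direction by 11.0% of like genes and in size by 23.4%. Mef2d had 2 probe sets. The brighter was at 11.18 in the Syn4 transgenic and 11.14 in the wild-type array, a difference of 0.04, and the dimmer was at 9.28 in the Syn4 transgenic and 9.06 in the wild-type array, a difference of 0.22. The size of the Mef2d difference therefore depends on the probe set, while its direction was the same in both. Mef2b, the remaining family member, had no probe set that carried its symbol alone, so it has no value here.

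Prox1 was at 6.33 in the Syn4 transgenic and 7.05 in the wild-type array, a difference of -0.72, or 1.65-fold lower. It passed the level filter only through the wild-type value, and both values were above the olfactory receptor percentile of 5.42. Of the 500 genes nearest in mean level, 3 (0.6%) were at least as far below 0 and 10 (2.0%) differed at least as much in size. Its nearest measured neighbour on chromosome 1, Smyd2, a lysine methyltransferase gene, had the same difference of -0.72 and was above the level filter in both arrays, at 10.80 in the Syn4 transgenic and 11.52 in the wild-type array. The next measured genes beyond it, Ptpn14 and Cenpf, were at 0.33 and 0.21. On the other side Rps6kc1 and Angel2 were at 0.15 and 0.03, and Vash2 was at 0.87, with 6.74 in the Syn4 transgenic and 5.87 in the wild-type array. Cenpf and Vash2 were under the level filter. These neighbours were looked up after the values were seen.

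**Figure D2:**
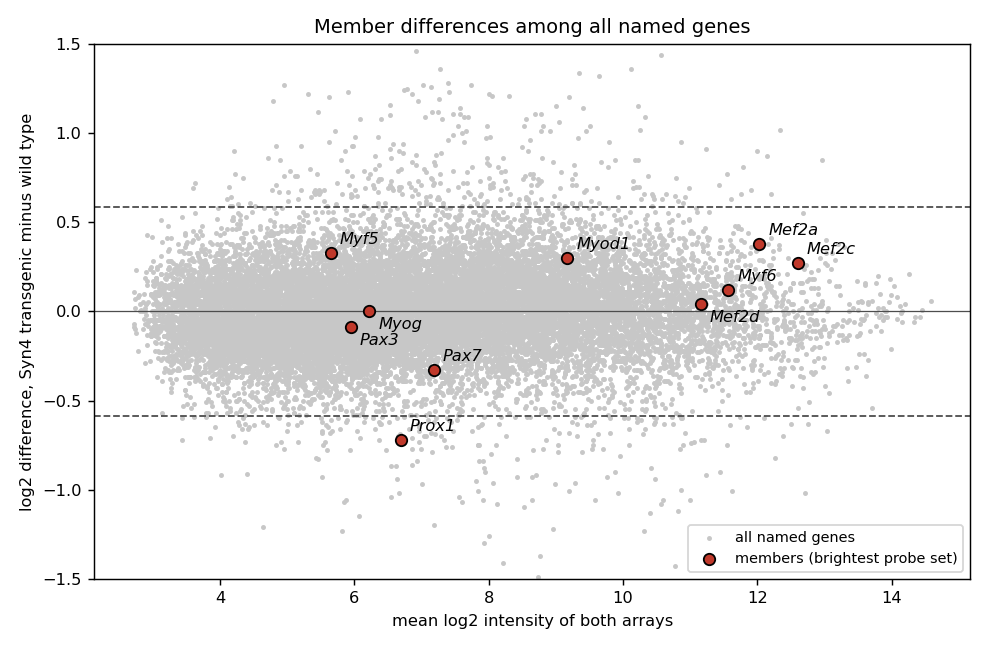
Log2 difference, Syn4 transgenic minus wild type (vertical axis), against the mean log2 intensity of both arrays (horizontal axis) for all named genes in grey and the 10 members in red. The dashed lines mark 1.5-fold, and Prox1, at -0.72, is the one member outside them. The axis ends at 1.5 in either direction, beyond which 45 genes are not drawn.

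Markers of the cells that are known to make Prox1 were set beside it. Of 7 measured lymphatic endothelial markers 4 were above 0 and 3 below, with a median of 0.05. None of the 6 that reached the level filter was past the rule of size, beside 4.37% of the 9974 genes at that filter. A list this short can hold none at that share. Lyve1, the hyaluronan receptor of lymphatics, was at 8.20 in the Syn4 transgenic and 8.15 in the wild-type array, and Flt4, the VEGF-C receptor, was at 7.21 in the Syn4 transgenic and 7.12 in the wild-type array. Mmrn1 was the highest at 0.93, with 6.45 in the Syn4 transgenic and 5.52 in the wild-type array, under the level filter, and Sox18 was the lowest at -0.37. Lyve1 and Flt4 were picked for naming after the values were seen. Summed over the list, linear intensity was 1464 in the Syn4 transgenic and 1502 in the wild-type array. Such a sum, here and for the lists below, is weighted to the brightest probe sets. None of the 7 lay under the olfactory receptor percentile.

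Satellite cell markers were split in direction. Of 14 markers 6 were above 0, 1 was at 0 and 7 were below, with a median of -0.03. None of the 10 that reached the level filter was past the rule of size, beside 4.37% of the 9974 genes at that filter. So short a list can hold none at that share. Cdh15, M-cadherin, which joins satellite cells to their fibre, read 8.74 in both arrays. Itga7, the laminin-binding integrin subunit that fibres also carry, was the highest at 0.48, and Fgfr4, a growth factor receptor of myoblasts, was the lowest at -0.62, with 6.06 in the Syn4 transgenic and 6.68 in the wild-type array, under the level filter. The calcitonin receptor gene Calcr, a marker of quiescent satellite cells, was at 5.48 in the Syn4 transgenic and 5.54 in the wild-type array, close to the olfactory receptor percentile. Cdh15 and Calcr were picked for naming after the values were seen. Summed linear intensity over the list was 5683 in the Syn4 transgenic and 5267 in the wild-type array. The brightest probe sets weigh most in this sum, so it does not describe the list as a whole, whose median was -0.03.

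Slow fibre genes were lower beside Prox1. Of 16 genes of the NFAT and slow fibre list 15 reached the level filter and 9 were past the rule of size, all lower, beside 1.71% of the 9974 genes at that filter, and the list median was -0.63. Myl3, the slow myosin light chain, was the lowest at -1.02, with 12.20 in the Syn4 transgenic and 13.22 in the wild-type array. The others past the rule were Tnnc1 (-1.01), Tnnt1 (-0.90), Myh7 (-0.82), Atp2a2 (-0.67), Myl2, Tpm3 and Csrp3 (each -0.63), which encode slow isoforms of troponin, myosin and tropomyosin, the slow calcium pump and a Z-disc protein, and the slow troponin I gene Tnni1, at 10.37 in the Syn4 transgenic and 11.37 in the wild-type array. Tpm3 had 4 probe sets, and of these the brightest, at -0.63, and another at -0.60 were past 1.5-fold, while the others were at -0.54 and -0.37. With the mean of each gene's probe sets 8 genes of the list were past the rule. Casq2 (-0.18), Myh7b (-0.17) and Ppargc1a (-0.05), also of the list and at the level filter, lay within 1.5-fold. So did the calcineurin-responsive NFAT genes. Nfatc2 was the highest of the list at 0.36, and Nfatc1 and Nfatc3 were at 0.03 and 0.01, while Nfatc4, under the level filter, was at -0.23. The repressor of slow genes Sox6 was at 10.56 in the Syn4 transgenic and 10.68 in the wild-type array. Casq2, Myh7b, Ppargc1a, Nfatc1, Nfatc3, Nfatc4 and Sox6 were picked for naming after the values were seen. Whether the slow fibre content of the dissected muscle had a part in the Prox1 value was not tested. Markers of muscle fibres in general were near equal, with a median of 0.06 over 12 genes and differences from -0.06 (Actn3) to 0.36 (Myh1).

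Of the partners and inhibitors of the bHLH factors 18 reached the level filter, and 1 was past the rule in each direction, beside 2.66% higher and 1.71% lower among the 9974 genes at that filter. Id1, whose product has no basic region and takes E proteins away from the myogenic factors, was 1.75-fold higher, with 8.55 in the Syn4 transgenic and 7.74 in the wild-type array. Bhlhe41, a bHLH repressor that is known to hinder MYOD, was 1.87-fold lower, with 9.43 in the Syn4 transgenic and 10.33 in the wild-type array. They were the highest (0.81) and the lowest (-0.90) of the 22 genes, of which 13 were above 0 and 8 below, with a median of 0.10. The genes of the E proteins, with which the bHLH members pair, were near equal, Tcf3 at -0.05, Tcf4 at 0.14 and Tcf12 at 0.16. The other Id genes were at -0.13 (Id2), 0.28 (Id3) and 0.29 (Id4, under the level filter). These 6 genes were picked for naming after the values were seen.

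Of 23 measured homeobox, Eya and other upstream factors 13 were above 0 and 10 below, with a median of 0.08. Of the 17 that reached the level filter 3 were past the rule, 1 higher and 2 lower, beside 4.37% of the 9974 genes at that filter. Klf5, a zinc finger factor of myoblast differentiation, was higher by 0.75, with 9.03 in the Syn4 transgenic and 8.28 in the wild-type array. The homeobox genes Barx2, which acts in mouse satellite cells, and Pitx3 were lower, by -0.61 and -0.60. Barx2 was at 7.23 in the Syn4 transgenic and 7.84 in the wild-type array, and Pitx3, at 6.33 in the Syn4 transgenic and 6.93 in the wild-type array, passed the level filter only through the wild-type value. Dach2 had the lowest difference of the list, -1.88, with 4.55 in the Syn4 transgenic and 6.43 in the wild-type array. Both Dach2 values were under the level filter, and the Syn4 transgenic one was also under the olfactory receptor percentile of 5.42. Its product is known in mice as a repressor of Myog that denervation removes. Myog read 6.22 in both arrays, also under the level filter, and a link to Dach2 was not tested. The cofactor genes Eya1, Eya2, Eya3 and Eya4 were at 0.11, 0.23, 0.17 and 0.20 and the homeobox gene Six4, whose product they assist, at 0.20, all picked for naming after the values were seen.

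Among regulators of the MEF2 factors 4 of the 29 genes that reached the level filter were past the rule, all higher, beside 2.66% of the 9974 genes at that filter. Hdac4, the class IIa deacetylase that binds and silences MEF2, was 1.75-fold higher, with 10.18 in the Syn4 transgenic and 9.37 in the wild-type array, and its second probe set differed by 0.73. Camk2b and Camk2d encode calcium/calmodulin kinases that phosphorylate class IIa deacetylases. Camk2b was at 11.92 in the Syn4 transgenic and 11.29 in the wild-type array, and Camk2d was at 11.13 in the Syn4 transgenic and 10.51 in the wild-type array. Sik1, a kinase that acts on the same deacetylases, was at 9.09 in the Syn4 transgenic and 8.46 in the wild-type array. The other kinases of the list were within 1.5-fold, with Camk2g at 0.20, Camk2a at -0.14, Camk1 at -0.05, Prkd2 at 0.26 and Prkd3 at 0.27, and Camk4 (-0.41) and Prkd1 (0.11) under the level filter. These 7 kinases were chosen with their values in view. The list held 31 measured genes, 17 above 0 and 13 below, with a median of 0.11. The other class IIa genes were at 0.30 (Hdac5), -0.03 (Hdac7) and -0.13 (Hdac9), named after their values were seen. Vgll2, a TEAD cofactor of muscle, was the lowest at -0.58, just short of 1.5-fold as deposited.

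Of the genes that the bHLH factors are known to switch on, 18 reached the level filter, and 4 of these were past the rule as higher and 1 as lower, beside 2.66% and 1.71% of the 9974 genes at that filter. Of all 21 measured genes 13 were above 0 and 8 below, with a median of 0.18. Ncam1, the neural cell adhesion molecule of regenerating and denervated fibres, was 2.20-fold higher, with 9.98 in the Syn4 transgenic and 8.84 in the wild-type array. Mybph, myosin binding protein H, was 2.11-fold higher, with 9.10 in the Syn4 transgenic and 8.02 in the wild-type array. It is the nearest measured gene to Myog on one side, and Ppfia4 on the other side was at -0.01, a pair looked up after the values were seen. Runx1, a transcription factor that denervation induces, was at 8.50 in the Syn4 transgenic and 7.46 in the wild-type array, and Chrnb1, the beta subunit of the muscle acetylcholine receptor, was at 8.88 in the Syn4 transgenic and 8.24 in the wild-type array. Actc1, cardiac actin, went the other way, 2.17-fold lower, with 10.26 in the Syn4 transgenic and 11.38 in the wild-type array.

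The remaining receptor subunits and the genes of myoblast fusion were within 1.5-fold. Chrna1 was at 0.50, Chrne, the adult subunit, at 0.35, Chrnd at 0.09 and Chrng, the fetal subunit, at -0.21. The fusion genes Mymk and Mymx were at -0.43 and -0.09 and, like Chrng, lay under the level filter. Embryonic myosin Myh3 was at 0.13 and perinatal myosin Myh8 at 0.35. All of the genes in this paragraph were picked for naming after the values were seen.

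**Figure D3:**
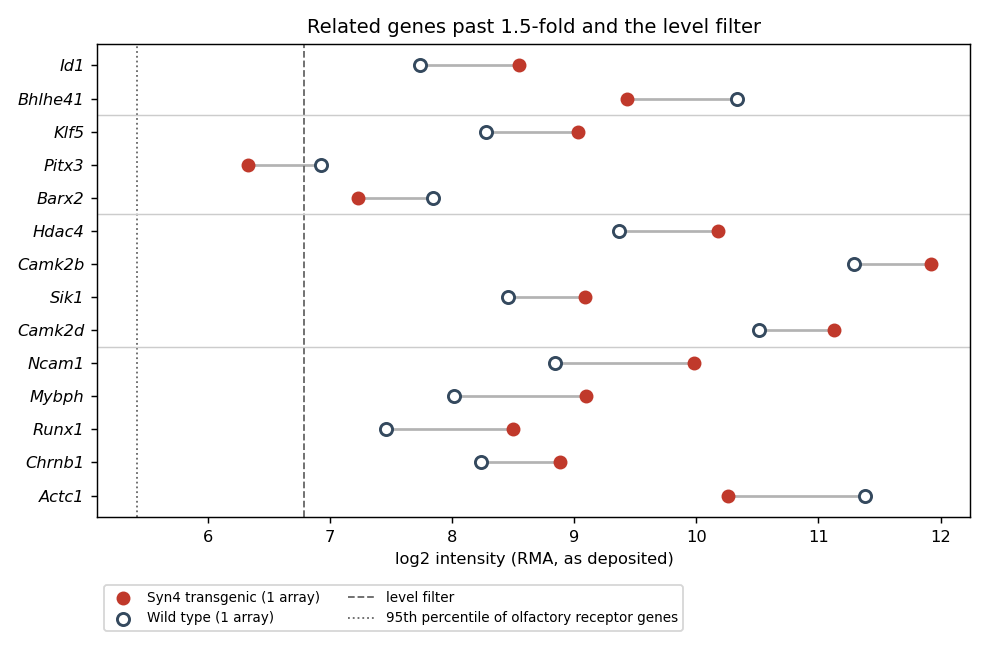
Log2 intensity (horizontal axis) of the 14 genes past 1.5-fold and the level filter in the lists of bHLH partners and inhibitors, homeobox and other upstream factors, MEF2 regulators and bHLH factor targets, from top to bottom and separated by lines. Filled red points are the Syn4 transgenic array and open points the wild-type array, and the red point lies to the right for 10 genes and to the left for Bhlhe41, Pitx3, Barx2 and Actc1.

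Markers of other cells also differed between the arrays. All 10 white adipocyte markers were above 0, 7 of them past the rule, beside 2.66% of the 9974 genes at the level filter, with a median of 1.14, from Fabp4 at 0.22 to Lep at 3.20, and their summed linear intensity was 7252 in the Syn4 transgenic and 4081 in the wild-type array. Lep, Pck1 and Slc7a10 reached the level filter only through the Syn4 transgenic value, and 4 were past the rule with both arrays held to it. All 9 measured fibroblast markers were above 0, with a median of 0.26 and Lum past the rule at 0.74, and their sum was 18223 in the Syn4 transgenic and 15472 in the wild-type array. All 7 measured Schwann cell markers were above 0, with a median of 0.30 and Egr2 past the rule at 1.08, and their sum was 4286 in the Syn4 transgenic and 3281 in the wild-type array. Egr2 reached the level filter only through its Syn4 transgenic value of 6.94, against 5.86 in wild type, and no Schwann cell marker passed with both arrays held to it. The blood endothelial median was 0.00 over 10 genes, from Kdr at -0.44 to Vwf at 0.32, and the macrophage median was 0.16 over 8, from Adgre1 at -0.12 to C1qa at 0.25. None of these markers lay under the olfactory receptor percentile in both arrays. The part of these cells in the differences of Mef2c, Id1, Klf5, Ncam1 and Runx1, which such cells can also express, was not tested.

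**Figure D4:**
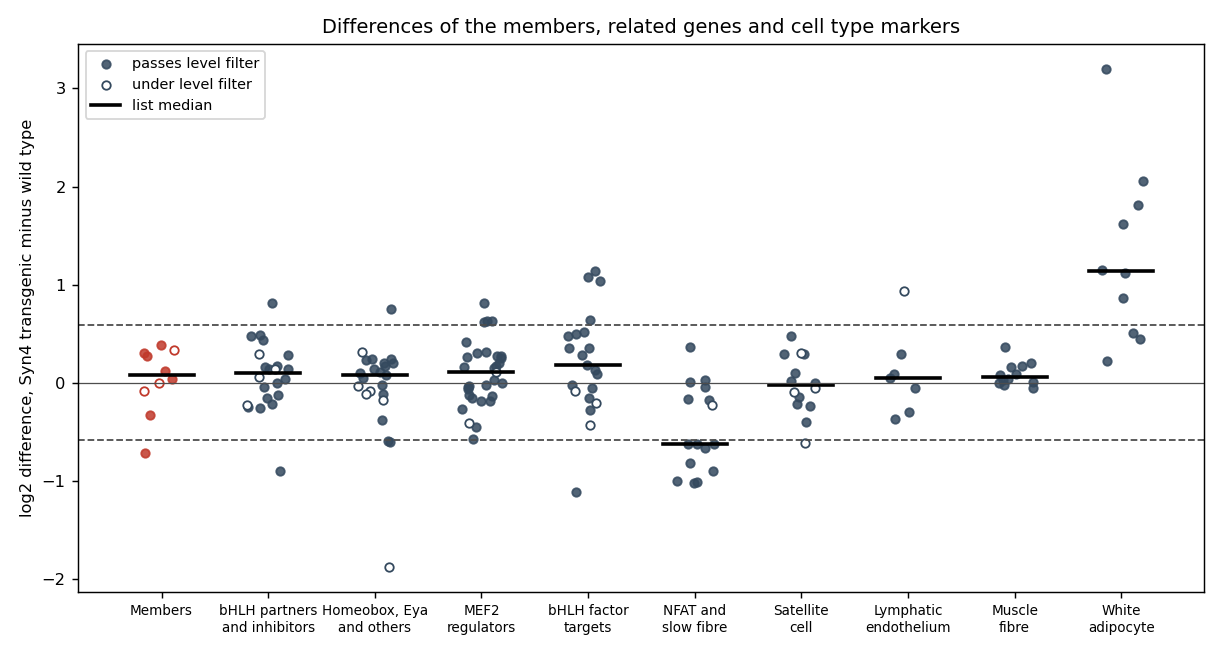
Log2 difference, Syn4 transgenic minus wild type (vertical axis), of each measured gene in the members, the 5 related pathway lists and 4 cell type lists, with filled points for genes that reach the level filter, open points for those under it, black bars for list medians and dashed lines at 1.5-fold. The members' median of 0.08 lies among those of the bHLH partners (0.10), the homeobox and Eya list (0.08) and the MEF2 regulators (0.11), with the slow fibre list at -0.63 and the white adipocyte list at 1.14.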

How the data were processed

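Total RNA of hindlimb muscle was labelled with biotin for 1 array per genotype, per the labels' protocols. The authors deposited log2 intensities of 35556 probe sets, made with RMA in Partek per the submitters' processing notes. Their versions and steps and the array's build are not stated there. The median was 6.06 in both arrays. RMA compresses large ratios and gives no call against background, and the number of arrays limits precision.

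Of the probe sets, 21789 carried 1 gene symbol, 1621 several and 12146 none. Entrez identifiers matched a RefSeq table of GRCm38.p6 for 21698 and changed no symbol. The brightest probe set stood for each of the 19938 genes. With 1 array per genotype nothing was tested. The share of the 500 genes nearest in mean level that differed at least as much is a description of these arrays. All named genes came from the members, the genes past the rule of size, the highest and lowest of each list, or are said to be picked or looked up after values were seen. The members and lists were chosen with earlier results of these data known. Counting was tested on simulated data. Python 3.11.15, pandas 2.3.3 and statsmodels 0.14.6 were used.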

Additional observations from a re-analysis of the deposited data

How the results depend on the processing

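No paired analysis was possible because each genotype has 1 array. Alternatives were the mean of a gene's probe sets, genes with 1 probe set, centring on the median, a loess trend removed (span 0.3), repeated quantile normalization, a 2-fold threshold and 3 other level filters. A value counts as moved past 0.1 on the log2 scale, and a count past 1.5 times. Of 362 alternative values 343 did not move and 19 did. A change of sign was scored for the Prox1 difference alone, which kept its sign. Many values had no room to move, since a gene with 1 probe set is unchanged under the probe set choices. The tally is therefore no measure of robustness. Prox1 ranged from -0.73 to -0.72, Mef2a from 0.37 to 0.40, Mef2c from 0.26 to 0.33, Myod1 from 0.27 to 0.30, Pax7 from -0.36 to -0.33 and Mef2d from 0.03 to 0.13 over the scaling and probe set choices, and Myog from -0.01 to 0.02, on both sides of 0. With 2-fold or with both arrays held to the level filter, 0 members passed, since Prox1 was under 2-fold and under the filter in the Syn4 transgenic array. With 2-fold the counts were 0 higher and 0 lower for bHLH partners, 0 and 0 for the homeobox and Eya list, 0 higher for MEF2 regulators and 3 lower for slow fibre genes. With both arrays filtered, 1 of the homeobox and Eya list was lower. Under median centring, loess and quantile scaling 1 MEF2 regulator was lower, Vgll2 being close to 1.5-fold. Among marker lists, the counts higher with both arrays filtered were 4 for white adipocytes and 0 for Schwann cells, and with 2-fold 0 for fibroblasts. With no filter or the olfactory receptor filter 1 lymphatic marker was higher and 1 satellite cell marker lower. Signal over background limits Pax3, Myf5 and Myog, under the level filter in both arrays, and Prox1, under it in the Syn4 transgenic array.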
